A study of Mus musculus with 6 samples.

Results

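Prostaglandin synthesis and breakdown enzymes were followed in brown adipose tissue (BAT) of KRAP-deficient mice. The list held 10 genes, Ptgds, Ptgis, Ptgs1, Ptgs2, Ptges, Ptges2, Ptges3, Hpgds, Hpgd and Ptgr1, and every probe set annotated to 1 of these symbols alone was taken. This gave 13 of the 45037 probe sets of the array, for 8 of the 18193 genes that have a probe set with a single symbol. Ptgs1 had no probe set named here and is not analysed here, and the 2 probe sets of Ptges3 also carry the symbol of a Ptges3 pseudogene and were set apart. The list was chosen by the signals of these arrays: it was put together after Ptgds and Ptgis had been seen to read lower in KO than in WT BAT. The KO and WT signals of the members are therefore given as a description, without a test.

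Prostaglandins are short-lived lipid signals made from arachidonic acid. The cyclooxygenases Ptgs1 and Ptgs2 turn arachidonic acid into prostaglandin H2, and a terminal synthase then sets which prostanoid is made: Ptgds and Hpgds give prostaglandin D2, Ptgis gives prostacyclin, and Ptges, Ptges2 and Ptges3 give prostaglandin E2. Hpgd and Ptgr1 inactivate prostaglandins in consecutive steps. In adipose tissue, prostaglandin E2 is known for restraining lipolysis, and derivatives of prostaglandin D2 and prostacyclin for acting on adipocyte differentiation.

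KRAP (current symbol Itprid2) is a protein associated with the cytoskeleton. The study compared BAT of 3 KRAP-/- mice (KO) with that of 3 wild-type littermates (WT), in pairs 1 to 3, with 1 Affymetrix mouse genome array for each animal. In KO mice, a block of exons of the gene had been replaced in all tissues by a neomycin resistance cassette, and the line had been backcrossed 6 times to C57BL6/J. Per the methods the mice were 32 weeks old, and all of them ate normal chow. Each signal was divided by its array's median, so that 1 is the level of the median probe set, and log2 differences are KO minus WT with values under 0.25 set to 0.25.

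Several arrays stood apart in ways that genotype does not describe. The summed signal of 3 liver markers (Alb, Ttr and Serpina1c) was 54.5 in KO3 and 0.96 to 2.23 in the other 5 arrays, and that of 4 skeletal muscle markers was 427.2 in KO2, 166.8 in WT3 and 10.5 to 59.5 in the other 4. The 3′ to 5′ signal ratio of the actin control was 3.80 in WT2 and 1.91 to 2.58 in the others. KRAP itself read 47.0, 35.1 and 41.4 in KO1 to KO3 and 55.3, 56.6 and 42.2 in WT1 to WT3, and since the sources do not place its probe set inside or outside the deleted exons, it could not check the genotype labels. Ucp1, the uncoupling protein that defines brown fat, was bright in every array (342.6 to 624.1 in KO and 345.2 to 655.3 in WT).

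The sequence before the transcription start of Ptgds is shown because Ptgds read lower in every KO array on both of its probe sets. These are the 250 bases upstream of the start, read on the strand of the gene at chr2:25469750-25469999 of GRCm38.p6 (minus strand, RefSeq), with an AP-1 motif in capitals.
Ptgds promoter: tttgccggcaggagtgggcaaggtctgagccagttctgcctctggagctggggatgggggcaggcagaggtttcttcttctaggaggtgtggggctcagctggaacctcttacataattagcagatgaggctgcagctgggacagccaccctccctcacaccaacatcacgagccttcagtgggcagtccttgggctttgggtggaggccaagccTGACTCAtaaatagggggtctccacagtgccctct
The motif, TGACTCA, starts 35 bases before the transcription start. Searched on both strands over the same 250 bases, it occurred in 4.46% of 32851 RefSeq promoters and, among the 9 member genes with a promoter sequence, in Ptgds alone. Ptgis had no promoter sequence here and was not searched. GGGCGG, the GC box, occurred in 5 of the 9 (Ptgs2, Ptges, Ptgr1, Hpgd and Ptges3) and in 32.7% of all promoters. CACGTG, an E-box, occurred in Ptges2 and in 6.02% of all promoters. Also searched were CCAAT (in Ptgr1 and 33.8% of all), AGAACA (in Ptges, Ptgs1 and 16.1% of all), TATAAA (in 0 of the 9 and 12.4% of all) and AGGTCA (in 0 of the 9 and 14.0% of all), none of which matched the Ptgds sequence. A match is a match of letters only.

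Ptgds and Ptgis read lower in each KO array than in any WT array. Ptgds encodes lipocalin-type prostaglandin D synthase, a secreted protein that also carries lipophilic ligands. On its brighter probe set (1423859_a_at), Ptgds read 5.04, 2.68 and 4.18 in KO1, KO2 and KO3 and 15.1, 15.3 and 22.9 in WT1, WT2 and WT3. The highest KO signal lay well below the lowest WT signal, KO2 was the lowest array of all and WT3 the highest. The means were 3.97 ± 1.196 in KO and 17.8 ± 4.43 in WT (SD, n = 3 each), and the KO over WT ratios were 0.333, 0.175 and 0.182 in pairs 1, 2 and 3. The mean log2 difference was -2.19 ± 0.521 (SD of 3 pairs), equal to a 4.55-fold lower signal. It lay between -2.49 (without pair 1) and -2.02 (without pair 2), and it was -2.05 without pair 3.

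The second Ptgds probe set (1423860_at) is directed to the same transcript and is no independent measurement. It read 2.06, 0.857 and 1.60 in KO1, KO2 and KO3 and 6.41, 5.49 and 9.21 in WT1, WT2 and WT3. The order of the KO arrays was the same as on the first probe set, and the groups again did not overlap. The means were 1.504 ± 0.606 in KO and 7.04 ± 1.94 in WT (SD, n = 3 each), and the log2 difference was -2.28 ± 0.562, 4.87-fold lower. With a pseudocount of 1 in place of the floor, this value was -1.69.

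Ptgis encodes prostacyclin synthase, an enzyme best known from the vessel wall. Its only probe set (1448816_at) read 0.193, 1.54 and 0.536 in KO1, KO2 and KO3 and 5.26, 4.08 and 2.08 in WT1, WT2 and WT3. All 3 KO signals lay below all 3 WT signals, but the highest KO signal (KO2) and the lowest WT signal (WT3) were close, and KO1 lay below the floor. The means were 0.756 ± 0.699 in KO and 3.81 ± 1.61 in WT (SD, n = 3 each). With the KO mean under the array median, the size of the difference is limited by dim KO signals. The gap was by far the widest in pair 1, with KO at 0.0368 of WT, against 0.377 in pair 2 and 0.258 in pair 3. The mean log2 difference was -2.59 ± 1.59 (SD of 3 pairs), 6.01-fold lower, and it was -1.68 without pair 1, -3.18 without pair 2 and -2.90 without pair 3. With a pseudocount of 1 in place of the floor, the difference of Ptgis was -1.47.

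**Figure D1:**
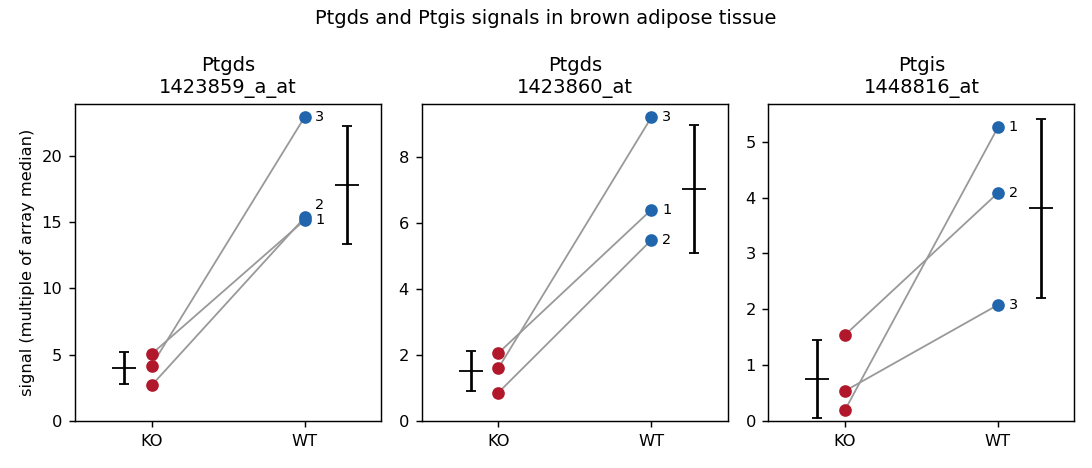
Signals of the 2 Ptgds probe sets and the Ptgis probe set in KO and WT BAT, as multiples of the array median on linear axes that start at 0 and differ between panels. Each point is 1 array, grey lines connect the animals of a pair (numbered beside WT), and black bars are means with SD (n = 3 each). In all 3 panels the 3 KO points lie below the 3 WT points, and the Ptgis signal of KO1 (0.193) belongs to the pair with the brightest WT signal (5.26).

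The cyclooxygenase and terminal synthase genes other than these were examined next. Ptgs2, the inducible cyclooxygenase, was dim on both of its probe sets, with signals below the array median in every array. On 1417262_at, Ptgs2 read 0.474, 0.392 and 0.304 in KO1, KO2 and KO3 and 0.864, 0.365 and 0.00868 in WT1, WT2 and WT3. The KO signals lay inside the WT range, and the log2 difference was -0.16 ± 0.618. On 1417263_at, Ptgs2 read 0.436, 0.522 and 0.505 in KO and 0.741, 0.914 and 0.0475 in WT, in pair order, with a log2 difference of -0.19 ± 1.04. On both probe sets, KO was lower in pair 1 and higher in pair 3, where the WT3 signal was near 0, and without the floor the log2 difference of 1417262_at was 1.45 and that of 1417263_at 0.61. These signals therefore give no direction for Ptgs2.

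Prostaglandin E synthase genes showed small or unstable differences. Ptges, the inducible microsomal synthase, had 3 probe sets. The brightest (1449450_at) read 4.83, 5.22 and 3.96 in KO1, KO2 and KO3 and 3.66, 7.59 and 4.20 in WT1, WT2 and WT3. KO was higher in pair 1 and lower in the other 2 pairs, the groups overlapped, and the log2 difference was -0.07 ± 0.470. The dimmer Ptges probe sets gave log2 differences of 0.11 ± 0.909 (1449449_at) and -0.32 ± 2.47 (1439747_at). On 1439747_at, the signals were 1.45, 0.994 and 0.0676 in KO1, KO2 and KO3 and 0.0364, 3.24 and 0.863 in WT1, WT2 and WT3. The wide SD came from pair 1, in which WT1 was dim (log2 differences of 2.53, -1.71 and -1.79 in pairs 1, 2 and 3). All 3 Ptges probe sets had the same pattern of a higher KO signal in pair 1 and a lower one in pairs 2 and 3.

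Ptges2, a constitutive membrane-associated synthase, was lower in KO in each pair. It read 12.9, 10.7 and 11.2 in KO1, KO2 and KO3 and 16.1, 18.3 and 11.7 in WT1, WT2 and WT3. KO was at 0.806 of WT in pair 1 and 0.584 in pair 2, but the signals were almost equal in pair 3 (0.957), and KO1 was above WT3. The log2 difference was -0.38 ± 0.363, a fraction of that of Ptgds. The 2 probe sets that carry both Ptges3 and its pseudogene read 39.7, 48.4 and 52.0 (1417998_at) and 42.9, 36.5 and 44.1 (1460221_at) in KO1, KO2 and KO3, against 47.8, 52.8 and 46.5 (1417998_at) and 49.5, 40.4 and 36.5 (1460221_at) in WT1, WT2 and WT3. On both, KO was lower in pairs 1 and 2 and higher in pair 3, and the transcripts behind them cannot be told apart.

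Hpgds, the hematopoietic prostaglandin D synthase of mast cells and other blood-derived cells, provides the other route to prostaglandin D2. Its probe set (1421492_at) was dim, with 0.509, 0.612 and 0.567 in KO1, KO2 and KO3 and 0.368, 1.16 and 0.964 in WT1, WT2 and WT3. KO was higher in pair 1 and lower in pairs 2 and 3, and the log2 difference was -0.40 ± 0.761.

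The breakdown enzymes overlapped between the groups on each of their brighter probe sets. Hpgd, the NAD-dependent dehydrogenase of the first inactivating step, read 3.34, 4.43 and 4.998 on 1419905_s_at in KO1, KO2 and KO3 and 5.24, 6.60 and 3.90 in WT1, WT2 and WT3. KO was lower in pairs 1 and 2 and higher in pair 3, with a log2 difference of -0.29 ± 0.563. The dim Hpgd probe set (1419906_at) read 0.0773, 0.613 and 0.628 in KO1, KO2 and KO3 and 0.689, 1.21 and 0.630 in WT1, WT2 and WT3. Its log2 difference was -0.82 ± 0.743, and although the groups did not overlap, the KO3 and WT3 signals were nearly equal. Ptgr1, the reductase of the second step, which also reduces leukotriene B4, read 4.89, 2.89 and 2.42 in KO1, KO2 and KO3 and 3.43, 5.31 and 3.37 in WT1, WT2 and WT3. KO was higher in pair 1 and lower in pairs 2 and 3, and the log2 difference was -0.28 ± 0.716, or 0.02 without pair 2.

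Given the arrays that stood apart, the members other than Ptgds and Ptgis were also averaged with each pair left out. The sign of the log2 difference turned for both Ptgs2 probe sets, all 3 Ptges probe sets and Ptgr1. It stayed negative for Ptges2 (-0.54 to -0.19), Hpgds (-0.84 to -0.15) and Hpgd (-0.61 to -0.11 on 1419905_s_at and -1.22 to -0.50 on 1419906_at).

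**Figure D2:**
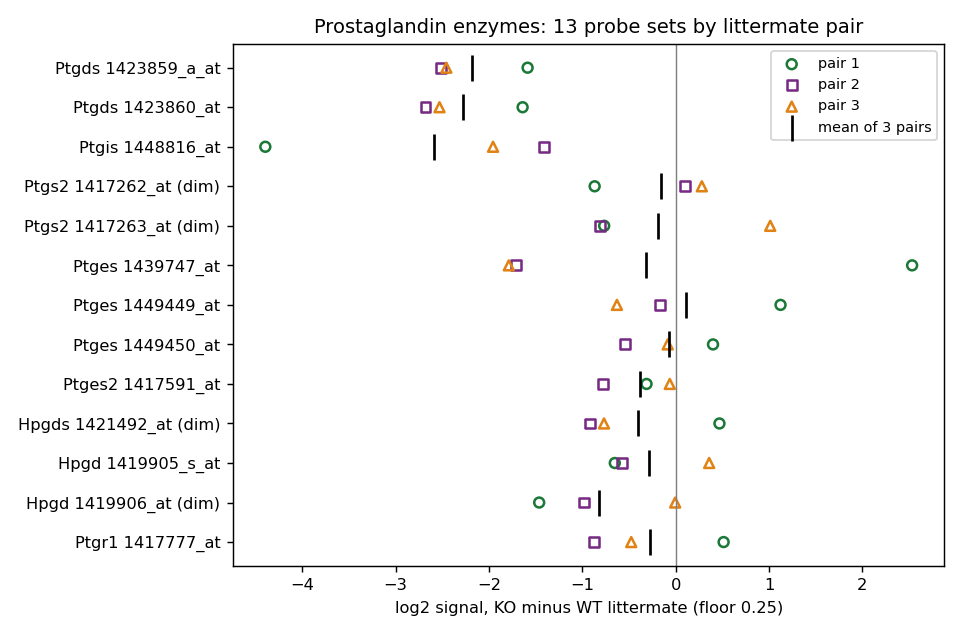
Log2 difference (KO minus WT littermate) of each of the 13 member probe sets, with values under 0.25 set to 0.25. Open symbols are the single pairs, black ticks are their means, and "dim" marks probe sets with a mean signal not above the array median. Only the 2 Ptgds probe sets and Ptgis have all 3 pairs below -1, and the pairs of most other members lie on both sides of 0.

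Counted over the list, 3 of the 13 probe sets (both of Ptgds and that of Ptgis) were at least 1.5-fold lower in KO in all 3 pairs, beside 0.939% of all 45037 probe sets. None was 1.5-fold higher in all 3 pairs (0 of 13, beside 0.853% of all). Lower in all 3 pairs at any size were 5 of 13, which adds Ptges2 and the dim Hpgd probe set, beside 12.0% of all probe sets, and higher in all 3 pairs were 0 of 13, beside 9.24%. In 4 of 13 all KO signals lay below all WT signals, beside 5.76%, and in 0 above, beside 4.95%. Since the list was made with these differences known, the counts describe the list and support nothing. The median log2 difference was -0.32 over the 13 probe sets, the same over the 9 of them whose mean signal was over 1, and -0.05 over the 22356 probe sets of the array that passed this filter. The other 4, both Ptgs2 probe sets, Hpgds and the dim Hpgd probe set, did not pass it. Ptgis (mean 0.756 in KO and 3.81 in WT) and Ptges probe set 1439747_at (0.836 and 1.38) passed it only through the WT arrays.

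With the pair as a block, limma called 0 of these 22356 probe sets at an adjusted p of 0.05 (0.00%). An unadjusted p under 0.05 was reached by 1911 of them (8.55%), with 5.14% lower and 3.41% higher in KO. The tests of other genes below come from this fit.

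The pathway around the enzymes was described with 41 further genes in 4 lists: prostaglandin receptors, arachidonate supply, other prostanoid enzymes and transport, and the lipoxygenase branch. Of these, 39 had a probe set named here and 30 were above the filter. None of the 30 passed limma after adjustment (0 of 30, with 0.484 the smallest adjusted p). At an unadjusted p under 0.05 there were 6, with Ptger3, Cbr3 and Ltc4s lower and Slco2a1, Cbr1 and Cbr2 higher in KO. Lower in all 3 pairs were 8 and higher in all 3 were 4, beside 18.4% and 12.4% of all probe sets above the filter.

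Among the receptors, 5 of 9 were above the filter, with a median log2 difference of -0.12. The prostaglandin D2 receptors Ptgdr and Ptgdr2 were below it, whereas the prostacyclin receptor Ptgir was measured and differed by -0.12 (adjusted p = 0.909). Ptger3, a prostaglandin E2 receptor that couples to inhibition of cyclic AMP and is abundant in adipocytes, read 29.0, 84.0 and 85.9 in KO1, KO2 and KO3 and 101.5, 144.5 and 100.5 in WT1, WT2 and WT3. The groups did not overlap and KO1 was far below the other arrays. The log2 difference was -0.94 (95% confidence interval -1.70 to -0.18, limma adjusted p = 0.509), and -0.50 without pair 1. Among the 10556 probe sets with a mean signal above 5, a filter chosen after seeing the data, its adjusted p was 0.00975. The log2 differences of Ptger4, a further prostaglandin E2 receptor, and Tbxa2r, the thromboxane receptor, were -0.28 and 0.20 (adjusted p = 0.819 and 0.865), and each changed sign without pair 2.

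In the arachidonate supply list, 10 of 13 genes were above the filter and their median log2 difference was 0.04. Acsl4, which activates arachidonic acid to its CoA ester, read 8.71, 10.8 and 11.7 in KO1, KO2 and KO3 and 13.4, 15.6 and 12.2 in WT1, WT2 and WT3, with no overlap between the groups and a log2 difference of -0.41 (adjusted p = 0.647), while its 2 dimmer probe sets, below the filter, gave 0.31 and 0.25. Plaat3, the adipose phospholipase A2, was bright in all arrays (209.9 to 228.2 in KO and 183.4 to 210.4 in WT) and differed by 0.17 (adjusted p = 0.849). Mgll, the monoacylglycerol lipase, and the secreted phospholipase Pla2g2d had log2 differences of -0.37 and 0.32 (adjusted p = 0.756 and 0.772).

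The list of other prostanoid enzymes and transport, with 9 of 12 genes above the filter and a median log2 difference of 0.14, held members on both sides. Akr1b3 and Akr1b7 are not analysed here. Slco2a1, the transporter that takes prostaglandins up for breakdown, read 3.61, 2.74 and 1.70 in KO1, KO2 and KO3 and 2.27, 1.26 and 1.32 in WT1, WT2 and WT3. It was higher in KO in each pair but the groups overlapped, the log2 difference was 0.72 (95% confidence interval 0.19 to 1.25, limma adjusted p = 0.484), and its dimmer probe sets, below the filter, gave -0.56, -0.32 and 0.35.

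The carbonyl reductases lay on both sides of 0. Cbr1, which can reduce prostaglandin E2 to F2alpha, read 48.6, 40.8 and 44.9 in KO1, KO2 and KO3 and 32.1, 31.1 and 29.0 in WT1, WT2 and WT3, a log2 difference of 0.54 (adjusted p = 0.519 by limma, 95% confidence interval 0.09 to 0.995). Cbr2 read 5.61, 4.95 and 4.68 in KO and 2.48, 3.78 and 3.80 in WT in pair order, a log2 difference of 0.62 (adjusted p = 0.561). Cbr3 read 8.70, 11.03 and 12.2 in KO and 15.1, 17.5 and 15.8 in WT in pair order, a log2 difference of -0.61 (adjusted p = 0.496 by limma, 95% confidence interval -1.08 to -0.14). In all 3 genes the groups did not overlap, with Cbr1 and Cbr2 higher and Cbr3 lower in KO.

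In the lipoxygenase branch, which shares arachidonic acid with the cyclooxygenases, 6 of 7 genes were above the filter with a median log2 difference of 0.06. Ltc4s, the leukotriene C4 synthase, read 10.0, 6.23 and 5.49 in KO1, KO2 and KO3 and 10.9, 12.8 and 10.3 in WT1, WT2 and WT3. The groups did not overlap, but KO1 was close to the WT arrays, and the log2 difference was -0.69 (95% confidence interval -1.27 to -0.10, limma adjusted p = 0.523). Under the filter above 5, its adjusted p was 0.0443. Alox5, Lta4h and Alox5ap differed by -0.20, 0.15 and 0.08 (adjusted p = 0.867, 0.903 and 0.956).

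**Figure D3:**
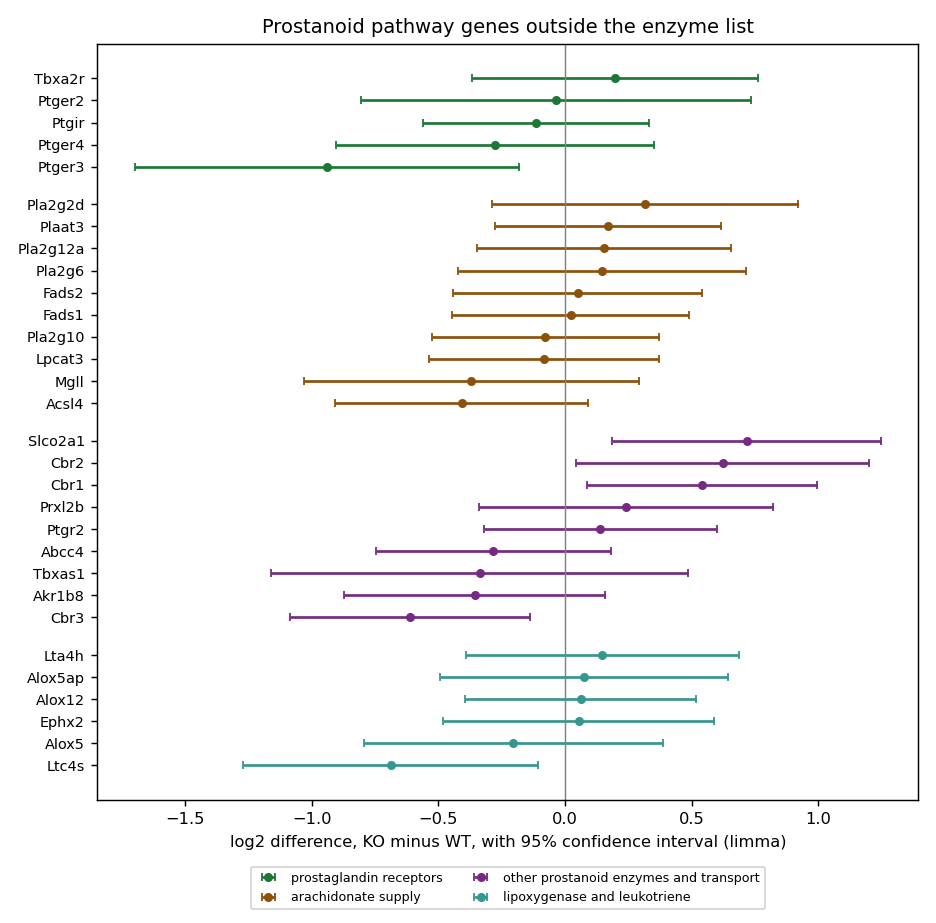
Log2 difference (KO minus WT) of the 30 measured pathway genes outside the enzyme list, 1 probe set a gene, in 4 colours for the 4 lists. Points are the limma estimates over 3 pairs and bars their 95% confidence intervals. Bars of Ptger3, Cbr3 and Ltc4s lie wholly below 0 and those of Slco2a1, Cbr2 and Cbr1 wholly above, and none of the 30 passed the adjusted test.

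Of the 10 enzymes, 5 lie on chromosome 2 with KRAP, in the order Ptgds, Ptges, Ptges2, Ptgs1, KRAP and Ptgis. The targeting vector was built from DNA of a mouse strain other than C57BL6/J. Alleles of another strain that stay linked to the KO allele and the deletion itself cannot be told apart for genes of this chromosome. Of 1527 probe sets of chromosome 2 above the filter, 1.05% were 1.5-fold lower in KO in all 3 pairs and 0.589% higher, and of 17701 on other chromosomes 0.819% were lower and 0.571% higher. The 16 lower ones on chromosome 2 include the 3 probe sets of Ptgds and Ptgis, which were known to be lower when the list was made. Of these, Ptgis passed the filter only through the WT arrays. The genes beside Ptgds and Ptgis were then taken, 5 tested genes on each side, a comparison chosen after seeing the data. The 10 around Ptgds had log2 differences from -0.46 (Abca2) to 0.52 (Mamdc4) with a median of -0.19, and the 10 around Ptgis from -0.47 (B4galt5) to 0.10 (Stau1) with a median of -0.11. None of these 20 had an unadjusted p under 0.05 (smallest limma adjusted p = 0.587 around Ptgds and 0.609 around Ptgis).

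**Figure D4:**
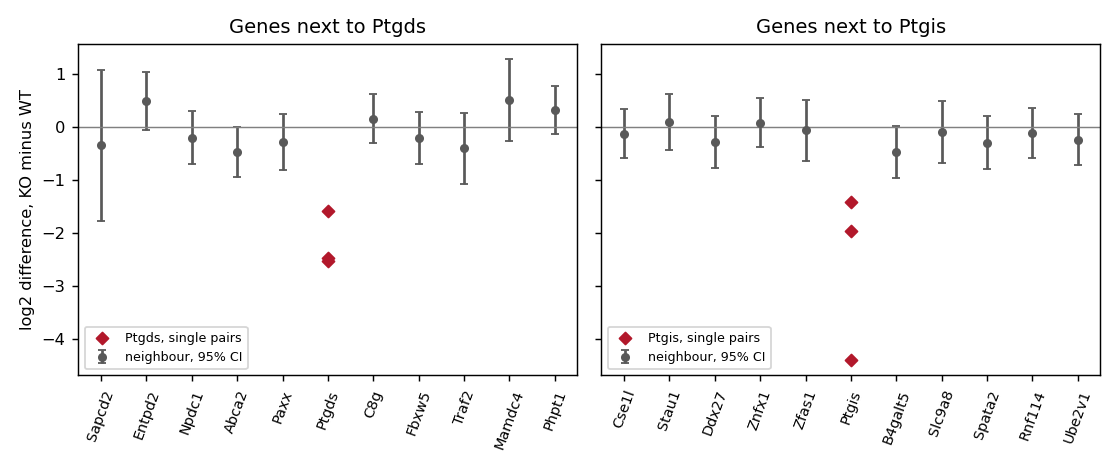
Log2 difference (KO minus WT) of the 5 tested genes on each side of Ptgds (left) and Ptgis (right), in the order of the chromosome. Grey points are limma estimates with 95% confidence intervals, and red diamonds are the 3 single pairs of Ptgds (1423859_a_at) or Ptgis. The neighbours lie between -0.47 and 0.52, while every pair of Ptgds and Ptgis lies below -1.

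The genes whose pattern over the 6 arrays was most like that of Ptgds (1423859_a_at) were Znrf2, Kif13b, Stxbp6, 4930402H24Rik and Arrdc1, with Pearson's r of 0.994, 0.984, 0.981, 0.979 and 0.976 of the log2 signals. All of them share the same 6 arrays and were picked as the highest of 22356 probe sets, so r is a description. The log2 differences of Znrf2, Kif13b, 4930402H24Rik and Arrdc1 lay between -0.62 and -0.12, smaller than that of Ptgds. Stxbp6 read 0.572, 0.320 and 0.419 in KO1 to KO3 and 1.30, 1.81 and 1.69 in WT1 to WT3. It passed the filter only through the WT arrays, so no size of its difference is given. Ptgis was not among them (r = 0.639 with Ptgds over the 6 arrays). Most like Ptgis were H2aw, Setd1b, Plk4, Sufu and Chmp3, with r of 0.991, 0.986, 0.985, 0.982 and 0.981. The log2 differences of H2aw, Setd1b, Sufu and Chmp3 lay between -0.59 (H2aw) and -0.09 (Chmp3). Plk4 read 0.718, 1.06 and 0.851 in KO1 to KO3 and 1.37, 1.36 and 1.03 in WT1 to WT3. It passed the filter only through the WT arrays, so no size of its difference is given. Ptgds and Ptgis were thus lower in KO with different orders of the arrays: the lowest Ptgds array was KO2 and the lowest Ptgis array KO1.

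Cell type markers were read beside Ptgds and Ptgis because whole tissue was measured, in which fewer cells of a type and less RNA per cell cannot be told apart. The 6 fibroblast and progenitor markers had a median log2 difference of 0.31. Of them, 3 were higher and 0 lower in KO in all 3 pairs, beside 12.4% and 18.4% of all probe sets above the filter. For Ptgis, the 6 endothelial markers summed to 44.8 to 48.7 in KO and 45.8 to 62.9 in WT, with 3 of 6 lower in all 3 pairs, beside 18.4% of all probe sets above the filter, and a median log2 difference of -0.15. The 5 measured smooth muscle and pericyte markers (of 6) summed to 176.4 to 220.5 in KO and 209.9 to 248.4 in WT, with a median log2 difference of 0.20. Of them, 2 (Rgs5 and Pdgfrb) were lower and 2 (Acta2 and Myh11) higher in all 3 pairs, beside 18.4% and 12.4% of all probe sets above the filter. The smooth muscle and pericyte sum was lower in KO in each pair (220.5 against 227.8, 176.4 against 248.4 and 186.8 against 209.9 in pairs 1, 2 and 3). Most of this sum was the signal of Rgs5 (mean 144.8 in KO and 180.3 in WT), so it says little about the other markers. The part of these markers in the Ptgis difference was not tested.

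For Ptgds, which is also known from leptomeningeal and glial cells, the mesothelial and meningeal list had 1 of 6 markers above the filter. That marker, the GABA transporter Slc6a13, read 0.392, 0.0764 and 0.155 in KO1, KO2 and KO3 and 1.97, 2.71 and 0.867 in WT1, WT2 and WT3. It passed the filter only through the WT arrays, and KO2 and KO3 lay below the floor, so no size or test of its difference is given. The defining markers Msln, Upk3b, Wt1, Krt19 and Aldh1a2 were below the filter. S100b, which Schwann cells and adipocytes both express, read 22.6, 14.9 and 20.1 in KO1, KO2 and KO3 and 49.1, 71.7 and 43.1 in WT1, WT2 and WT3 (log2 difference -1.50, adjusted p = 0.396). The Schwann cell factor Sox10 was higher in KO by 0.28 (adjusted p = 0.716). Of the 4 measured white adipocyte markers (of 5), 3 were lower and 1 higher in KO in all 3 pairs, beside 18.4% and 12.4% of all probe sets above the filter. Lep, Nnat and Mest were the lower ones, with log2 differences of -2.07, -1.65 and -1.67, and Retn was higher, by 0.95. For Lep the groups overlapped, with KO2 (4.76) above WT1 (2.73). None of the 4 passed the adjusted test (limma adjusted p = 0.211 for Lep and 0.396 to 0.413 for the others). Their sum was 50.4 to 87.3 in KO and 43.2 to 67.9 in WT, most of it Retn (mean 60.8 in KO and 31.0 in WT). The 5 measured brown adipocyte markers (of 6) summed to 1568 to 2100 in KO and 1563 to 2152 in WT. The part of these markers in the Ptgds difference was not tested.

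For Hpgds, the mast cell list is the nearest. Of its 6 markers 4 were above the filter and summed to 14.1 to 16.2 in KO and 7.48 to 9.70 in WT, with no overlap. Cpa3, Cma1 and Hdc were higher in KO in all 3 pairs (3 of 4, beside 12.4% of all probe sets above the filter), and Mcpt4 in 2 of 3. The log2 differences of Cpa3 and Cma1 were 0.66 and 0.98 (limma adjusted p = 0.455 and 0.442). Hdc read 2.02, 1.88 and 2.03 in KO and 1.96, 0.262 and 0.406 in WT, in pair order. It passed the filter only through the KO arrays and the groups overlapped, so no size or test of its difference is given. Tpsb2 and Ms4a2 were below the filter. Hpgds lay at 0.509 to 0.612 in KO and 0.368 to 1.16 in WT. The 5 macrophage markers summed to 64.5 to 68.8 in KO and 47.1 to 66.6 in WT, most of it Csf1r (mean 38.6 in KO and 33.9 in WT). Of them, 2 (Mrc1, Cd163) were higher and 1 (Cd68) lower in all 3 pairs, beside 12.4% and 18.4% of probe sets above the filter.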

How the data were processed

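Total RNA of BAT from 3 KO and 3 WT littermates had been hybridised by the authors to 1 array per animal. The authors deposited 1 linear signal intensity per probe set, for which the labels name GCOS, and no version, algorithm or scaling is given in the sources used here. In all, 64 control probe sets were left out, and intensities were scaled to an array median of 1 (medians 16.5 to 20.4 before), raised to 0.25 where lower, and taken to log2. Of 45037 probe sets, 22356 had a mean above 1 and entered lmFit and eBayes of limma 3.58.1 (R 4.3.3), modelling genotype and pair, with Benjamini-Hochberg adjusted p-values read at 0.05. The number of arrays limits the precision. The pairing comes from the design, which numbers the littermates. After subtraction of the group mean, the arrays of pairs 1, 2 and 3 correlated by 0.446, 0.0847 and 0.160, and arrays of different pairs by -0.359 to 0.281. Probe set names came from a platform table (34945 with 1 symbol, 932 with several and 9160 with none), and probe sets with several were not named. The gene order is that of GRCm38.p6.

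The members, lists and tests were chosen with earlier results of these data known. Named were all members, up to 4 genes of each pathway list with the largest difference (brightest tested probe set), the 5 genes most like Ptgds and Ptgis, KRAP and Ucp1; genes named beyond these, markers included, were chosen after their values were seen. The fit was tested on simulated data. Alternatives were the scaling (as deposited, quantile), the floor, a pseudocount, the filter, limma's trend and robust options, no replicate block, every tested probe set of a gene, and each pair left out.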

Additional observations from a re-analysis of the deposited data

How the results depend on the processing

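Of 117 alternative values of the members, 115 moved by less than the SD of the pairs, and 11 changed sign. Values with a pair left out cannot move by that SD with 3 pairs. Those without the replicate block equal the main value in this balanced design. For the size of the move, these settings were therefore no test. The values of Ptgds and Ptgis kept their sign in all 27. With all 3 pairs lower, leaving out a pair or the block could not change it. Without the floor Ptgs2 (1417262_at) was at 1.45, and with a pseudocount of 1 Ptgds (1423860_at) was at -1.69 and Ptgis at -1.47, against -2.59 with the floor. With each pair left out in turn, 5 to 10 member probe sets were lower in all remaining pairs (10 without pair 1). At least 1.5-fold lower in these pairs were 3 to 5 (5 without pair 1 and without pair 3). Such counts over fewer pairs cannot fall below those over all 3. The share over all probe sets was not taken for them, so they add nothing to the counts over 3 pairs. The member median was -0.54 (without pair 3) to -0.15 (without pair 2). Without the replicate block, the member median is -0.32 by design, and 0 of 22356 probe sets passed limma with 1283 at an unadjusted p under 0.05. The count over all probe sets, 0 in the fit described, was 123 with the pseudocount, 311 with limma's trend and robust options, 40 with a filter above 2, 0 to 255 with a pair left out (255 without pair 1), and 362 with the filter above 5 that was chosen after seeing the data. Under that filter 2 of 18 pathway genes passed, Ptger3 and Ltc4s, beside 362 of all 10556 probe sets tested. With a pair left out, the sign turned for 5 named pathway genes: Ptger4 (-0.53 to 0.038, turned without pair 2), Tbxa2r (-0.060 to 0.37, without pair 2), Alox5 (-0.48 to 0.025, without pair 2), Lta4h (-0.080 to 0.29, without pair 3) and Alox5ap (-0.059 to 0.34, without pair 1 and without pair 2). Each filter leaves fewer probe sets to test, and limma was fitted again on those kept. For Ptger3, limma's unadjusted p was 0.0226 in the main fit, above its adjusted p of 0.00975 under the filter above 5. The cause of these changes was not tested. Signals near or below the floor limit Ptgs2, Hpgds, the dim Hpgd and Ptges probe sets and the sizes of the Ptgis, Slc6a13, Hdc and Stxbp6 differences.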
